A study of Mus musculus with 12 samples.

Results

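A set of 10 genes of fast skeletal muscle was followed in the adult mouse heart: the myosin light chain genes Myl1 and Mylpf, the myosin heavy chain genes Myh1, Myh2 and Myh4, the troponin genes Tnnt3, Tnni2 and Tnnc2, the actinin gene Actn3 and the calsequestrin gene Casq1. They were chosen by name, as every non-control probe whose accession maps to one of the 10 symbols. This gave 12 of the 55585 probes with a value on every array, with 2 probes each for Myl1 and Tnnt3 and 1 for each of the other 8. Of the 20640 genes with a symbol these are 10. The list was drawn up with results of the comparisons with control already known, among them the high values of Myl1 and Casq1, so differences from control are given as a description without a test. Direct comparisons between mutant lines carry the adjusted p of the fit.

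The sarcomere is built from families of related proteins, of which muscles use different members. Fast skeletal fibres use the myosin, troponin and actinin isoforms encoded by these genes and store calcium on Casq1, the fast calsequestrin, whereas the adult ventricle uses cardiac isoforms such as Myh6, Myl3, Tnnt2, Tnni3, Tnnc1 and Casq2. Nkx2-5 encodes a homeobox transcription factor needed for the formation of the heart.

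RNA of the heart apex was measured on 12 arrays, 3 for each of 4 knock-in lines of Nkx2-5 on the C57BL/6J background. The mice were males of 15 weeks, and the labels give every line a + allele beside the altered one. In the control line (control/+) the knock-in keeps the isoleucine at position 183, in I183M/+ it becomes methionine, in I183P/+ it becomes proline, and in delta/+ the altered allele is a full deletion. Whether the 3 arrays of a line stand for 3 animals is not stated, and p-values measure only the spread between these samples, which may be technical. In bulk RNA, fewer cells of a type and less RNA per cell cannot be told apart.

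The upstream sequences of the 2 genes that stood highest over control are shown because their levels carry the main pattern. Each is the 250 bases before the annotated start in the RefSeq table of GRCm38.p6, 5′ to 3′ on the gene's strand, with matches to CANNTG (the E-box bound by myogenic factors) in capitals. The Myl1 window is chr1:66945057-66945306 on the minus strand, and the Casq1 window is chr1:172219896-172220145 on the minus strand.
Myl1: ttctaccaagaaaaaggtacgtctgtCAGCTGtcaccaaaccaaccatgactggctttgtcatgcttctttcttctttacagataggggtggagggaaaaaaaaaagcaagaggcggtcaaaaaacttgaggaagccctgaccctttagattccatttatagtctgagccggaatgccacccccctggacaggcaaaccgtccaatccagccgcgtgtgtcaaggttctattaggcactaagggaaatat
Casq1: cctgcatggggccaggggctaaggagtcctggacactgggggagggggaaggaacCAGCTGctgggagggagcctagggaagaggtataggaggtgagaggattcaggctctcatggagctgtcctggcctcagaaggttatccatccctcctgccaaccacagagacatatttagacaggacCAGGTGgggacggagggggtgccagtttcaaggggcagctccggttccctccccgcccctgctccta
The Myl1 window held 1 such match, CAGCTG, 224 bases before the start. The Casq1 window held 2, CAGCTG at 195 bases and CAGGTG at 67. Of all 32851 windows of this length, 66.2% held CANNTG on either strand. Neither window held AAGTG, the core of the site known for Nkx2-5, which 40.7% of all windows held, nor a MEF2 motif, which 2.92% held. No match says only that these letters are not in this window. For Myl1 there is 1 window, while its 2 probes are for different transcripts, and the transcript that the window precedes is not named.

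One array stood apart from the rest. On control replicate 1, 99.1% of the 59305 spots were well above background, against 51.2% to 75.2% on the other 11 arrays, and the median processed intensity was 602 against 34.8 to 92.5. I183M replicate 1 (72.8%) and delta replicate 2 (75.2%) came next. Levels below are log2 processed intensity minus the array's 75th percentile, and results are given with and without control replicate 1. The 3 control arrays, the 3 I183M arrays and I183P replicates 1 and 2 shared slide 1. I183P replicate 3 and the 3 delta arrays shared slide 2. The tissue label was borne out by its markers: all 10 ventricular cardiomyocyte genes listed were well above background on the other 11 arrays. Nkx2-5 itself had levels of 3.11, 4.45 and 4.56 in control, 4.52, 4.63 and 4.57 in I183M, 4.74, 4.54 and 4.51 in I183P, and 3.77, 3.78 and 3.92 in delta. The delta arrays were below every I183M and I183P array and overlapped the control arrays only through control replicate 1. With normexp background correction and quantile normalization they lay below all control arrays, by 0.73 (limma adjusted p = 0.031). Against I183M and I183P the differences were then -0.85 and -0.83 (limma adjusted p = 0.023 and 0.036). On the levels above, the differences from control, I183M and I183P were -0.22, -0.75 and -0.77 (SE 0.34). None of these passed an adjusted p of 0.05 (limma adjusted p = 0.866 against control). With the slide as a block they were -0.09, -0.62 and -0.69 (SE 0.65, 0.65 and 0.51), again with none past 0.05. The position of the probe relative to the deletion is not given in the sources used here.

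The 10 genes fell into 2 sets by detection. Myl1, Casq1, Tnnt3, Tnni2 and Tnnc2 were well above background on all 12 arrays. Myh1, Myh2, Myh4, Actn3 and Mylpf were well above background on at most 3 arrays, and control replicate 1 was one of them in every case. The test required detection on 3 or more of the 12 arrays, which 6 of the 10 genes met, Myh4 through control replicate 1, I183M replicate 1 and delta replicate 2, the 3 arrays with the largest share of spots above background.

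Myl1, the fast alkali light chain of myosin, was higher in all 3 mutant lines than in the control line. Its first probe, for transcript NM_021285, had levels of 2.80, 4.84 and 4.16 in control, 5.82, 5.93 and 5.69 in I183M, 5.93, 5.79 and 6.74 in I183P, and 6.00, 5.63 and 6.39 in delta. Every one of the 9 mutant arrays lay above every control array, and the control arrays spread widely among themselves. The group means were 3.93 ± 1.04 in control, 5.81 ± 0.12 in I183M, 6.15 ± 0.51 in I183P and 6.01 ± 0.38 in delta (SD, n = 3 each). The differences from control were 1.88, 2.22 and 2.07 on the log2 scale (SE 0.48), or 3.68-fold, 4.66-fold and 4.20-fold.

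The second Myl1 probe, for transcript NM_001113387, also read lowest in control. Its levels were -1.30, 0.79 and -0.18 in control, 1.76, 1.96 and 1.53 in I183M, 1.49, 1.45 and 2.61 in I183P, and 1.65, 1.00 and 2.01 in delta. Again all 9 mutant arrays were above all 3 control arrays, while the delta mean lay below the I183M mean here (1.55 against 1.75) and above it on the first probe. Differences from control on this probe were 1.98, 2.08 and 1.78 (SE 0.53). Over the 11 arrays outside control replicate 1 the probes correlated at 0.96 (Pearson), and they read transcripts of 1 gene from the same arrays.

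Part of the Myl1 difference came from control replicate 1, the lowest array on both probes in these levels. Its 75th percentile was 1450, against 506 to 657 on the other arrays. In processed intensity the second probe was lower on control replicate 3 (519 against 589), as was the first with normexp and quantile (13.16 against 13.18). Without control replicate 1 the differences from control were 1.31, 1.65 and 1.50, and all 9 mutant arrays remained above the other 2 control arrays. With normexp and quantile over all arrays the differences were 1.46, 1.82 and 1.55. With the slide as a block they were 1.88, 1.93 and 1.19 (SE 0.47, 0.52 and 0.84). Within slide 1 the I183M and I183P differences were 1.88 and 1.93. No slide held both control and delta arrays, so the delta difference with the block rests on the I183P arrays. Across all 29795 genes and features tested, all mutant arrays stood above all control arrays for 0.819%, for 3.4% without control replicate 1, and for 0.993% with normexp and quantile. The rule used this contrast, so nothing is read from Myl1 lying among them.

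Casq1 was higher than control in I183M and I183P, with smaller differences than Myl1. Its levels were -0.38, -1.97 and -1.25 in control, -0.05, -0.13 and -0.04 in I183M, -0.23, 0.60 and 0.61 in I183P, and 0.16, -0.36 and -1.16 in delta. On these levels the I183M and I183P arrays all lay above the control arrays, while delta overlapped control through control replicate 1 alone. The means were -1.20 ± 0.80, -0.07 ± 0.05, 0.33 ± 0.48 and -0.45 ± 0.66 in the same order (SD, n = 3 each), which puts the differences from control at 1.13, 1.53 and 0.75 (SE 0.45).

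Casq1 differed from Myl1 in how it responded to control replicate 1 and to scaling. Without that array its differences grew to 1.53, 1.94 and 1.15, since control replicate 1 was the highest control array for Casq1. With normexp and quantile over all arrays the differences were 0.99, 1.35 and 0.67. Delta replicate 3 (8.36) then lay below control replicate 3 (8.37) as well as control replicate 1 (8.51). With the slide as a block the differences were 1.13, 1.39 and 0.32. When each array was scaled to the median of 11 cardiac counterpart genes the delta difference was -0.06, and when scaled to the mean of 8 ventricular counterparts it was 0.28; I183M and I183P stayed above 0 with both.

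**Figure D1:**
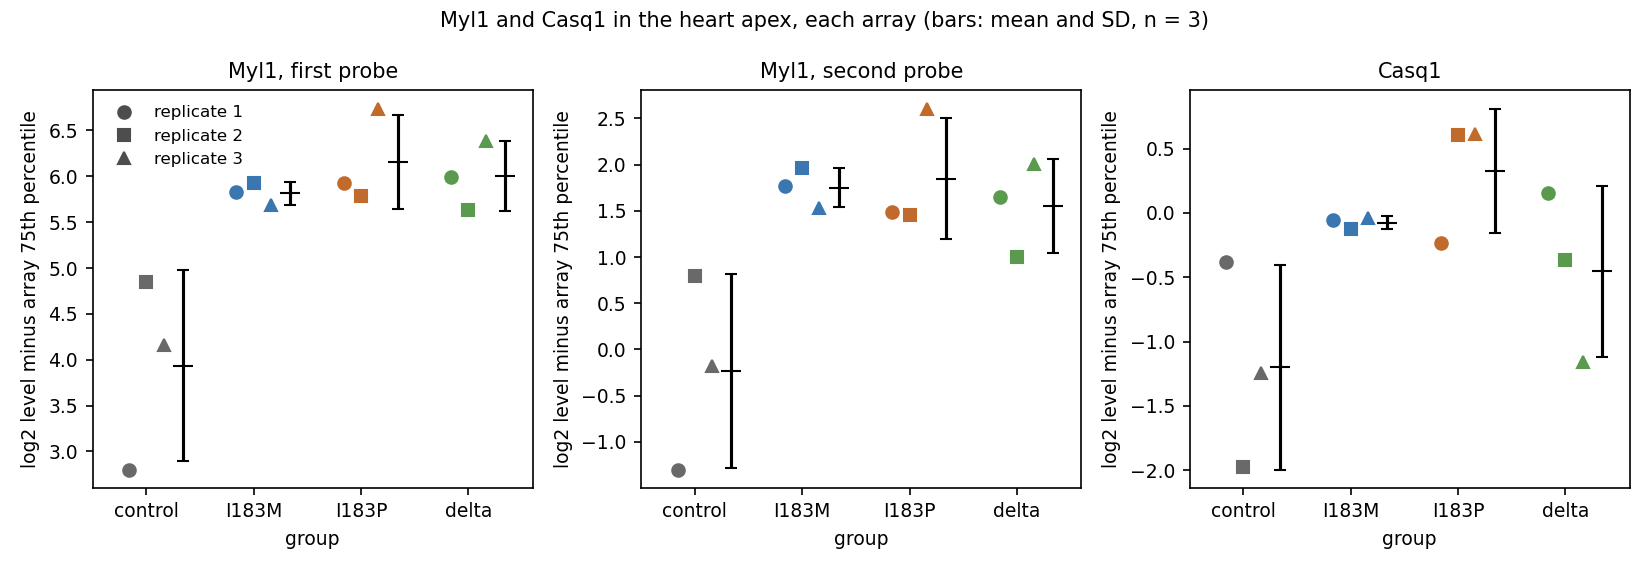
Levels of both Myl1 probes and of Casq1 on each array (y axis, log2 processed intensity minus the array's 75th percentile) by group (x axis); marker shapes are replicates, and bars are the mean and SD of 3 arrays. All mutant arrays lie above all control arrays for Myl1, from 5.63 upward on the first probe against at most 4.84, and delta replicate 3 lies at -1.16 for Casq1, beside control replicate 3 at -1.25.

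Set against its cardiac counterpart on the same array, Myl1 was still higher in the mutant lines. That counterpart, Myl3, hardly varied, with processed intensities of 564543 on control replicate 1 and 550525 to 598440 on the other 11 arrays. A ratio to it therefore stays close to the unscaled intensity of Myl1. The log2 ratio of Myl1 to Myl3, the ventricular light chain gene, relative to the mean of control replicates 2 and 3, was -0.38, 0.38 and -0.38 in control, 1.34, 1.33 and 1.00 in I183M, 1.35, 1.10 and 2.34 in I183P, and 1.48, 1.02 and 1.84 in delta. Control replicate 1 lay inside the range of the other control arrays for this ratio, and every mutant array was above it. The ratio of Casq1 to Casq2 did not share this: it was 2.45 on control replicate 1, above every mutant array, against -0.34 and 0.34 on the other control arrays and 1.09 to 2.39 on the mutant arrays. Both are ratios of processed intensity, and the Casq1 value of control replicate 1 depended on that. With normexp and quantile, Casq1 read 8.51 on that array and 7.96 and 8.37 on the other control arrays, and Casq2 read 15.50, 15.45 and 15.46. Mean values in I183M, I183P and delta were then 9.27, 9.63 and 8.95 for Casq1 and 15.41, 15.38 and 15.10 for Casq2.

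The 3 fast troponin genes followed no common pattern. Tnnc2, the calcium-binding subunit of fast troponin, had levels of 0.17, -1.26 and -1.22 in control, -1.34, -1.46 and -1.66 in I183M, -1.68, -1.94 and -1.47 in I183P, and -0.66, -0.51 and -1.30 in delta. The I183M and I183P arrays lay below all control arrays, and the delta arrays lay above all I183M and I183P arrays. Differences from control were -0.72, -0.93 and -0.06 (SE 0.39), and without control replicate 1 they were -0.25, -0.46 and 0.42.

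Tnni2, the inhibitory subunit, hardly separated the groups. Its levels were 0.07, 1.23 and 1.07 in control, 0.79, 1.19 and 1.12 in I183M, 1.45, 1.11 and 0.70 in I183P, and 1.61, 0.97 and 1.26 in delta. The groups overlapped throughout. The differences of 0.24, 0.29 and 0.49 (SE 0.34) became -0.12, -0.07 and 0.13 without control replicate 1.

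Tnnt3, the tropomyosin-binding subunit, varied widely between arrays of a group. On its brighter probe the levels were -0.16, -3.37 and -3.14 in control, -2.01, -3.40 and -3.22 in I183M, -2.94, -3.16 and -3.25 in I183P, and -3.08, -1.43 and -2.40 in delta. The 3 highest values were those of control replicate 1, delta replicate 2 and I183M replicate 1, the arrays with the most spots above background. On the second probe the levels were -0.61, -3.13 and -3.55 in control, -2.07, -3.77 and -4.67 in I183M, -3.29, -3.41 and -3.17 in I183P, and -2.82, -2.07 and -2.54 in delta, with I183M replicate 3 not well above background. Both probes read delta above I183P by 0.81, without overlap on the second and with overlap on the first. With normexp and quantile the first did not overlap either. For I183P over I183M the second probe gave 0.21 and the first -0.24, each smaller than its SE of 0.80. The first probe's differences from control of -0.65, -0.89 and -0.08 (SE 0.80) turned to 0.38, 0.14 and 0.96 without control replicate 1. The part of array background in the Tnnt3 values was not tested.

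**Figure D2:**
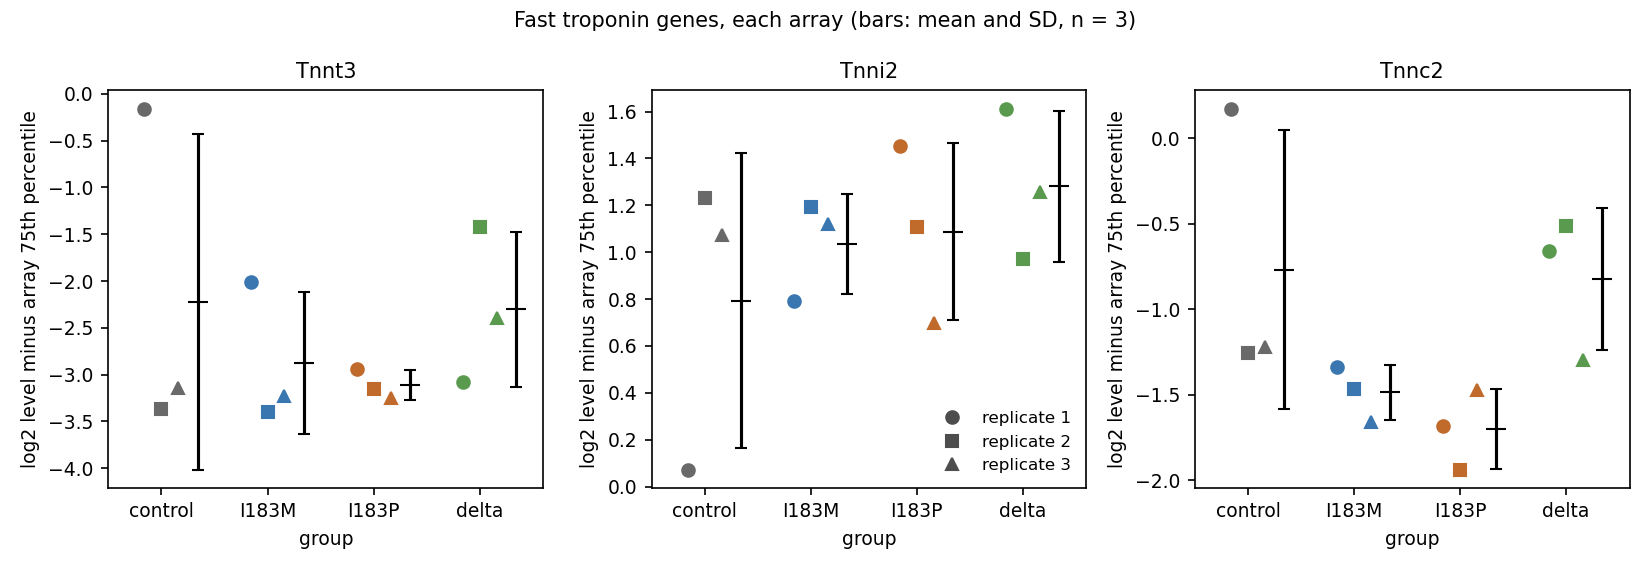
Levels of Tnnt3, Tnni2 and Tnnc2 on each array (y axis, log2 processed intensity minus the array's 75th percentile) by group (x axis); marker shapes are replicates, and bars are the mean and SD of 3 arrays. Control replicate 1 is the highest array for Tnnt3 (-0.16) and Tnnc2 (0.17) and the lowest for Tnni2 (0.07).

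The fast myosin heavy chain genes were mostly below the detection limit in every line. Myh4, the heavy chain of the fastest fibres, had processed intensities of 657 on control replicate 1, 70.1 on delta replicate 2 and 50.5 on I183M replicate 1, and was not well above background on the other 9 arrays. Myh1 was well above background on control replicate 1 (178) and delta replicate 2 (26.3) only. Myh2 was well above background on the same pair of arrays, at 259 and 26.4.

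Actn3, the Z-disc actinin of fast fibres, was well above background on control replicate 1 (315) and delta replicate 3 (25.6). Mylpf, the fast regulatory light chain, was well above background on control replicate 1 alone (53.6), and its intensities on the other 11 arrays ran from 3.8 to 8.7. No line therefore had any of these 5 genes well above background on all of its arrays, and no fold is given for the 4 that were not tested. Myh4 was tested only through the 3 arrays on which it read high, and its fitted differences from control (SE 1.67) are not read.

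**Figure D3:**
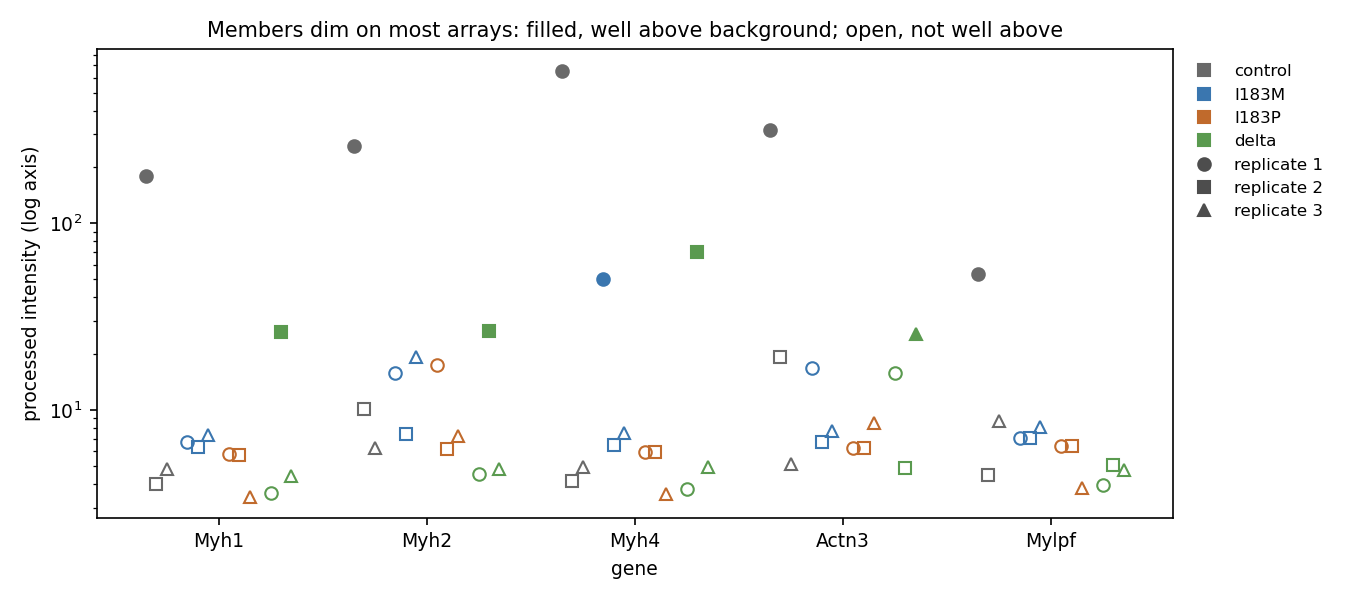
Processed intensity (y axis, log axis) of Myh1, Myh2, Myh4, Actn3 and Mylpf (x axis) on the 12 arrays; colours are groups, shapes are replicates, and filled markers are well above background. Control replicate 1 is the highest array for each gene in processed intensity, from 53.6 for Mylpf to 657 for Myh4. With normexp and quantile it was the highest for Myh4 alone.

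Of the 6 genes tested, 0 passed an adjusted p of 0.05 in each of the 3 direct comparisons between mutant lines in limma's fit. In the comparisons with control the count was also 0 of 6 each, from which nothing is read, since the genes were chosen with those contrasts known. Over all genes and features the share past that threshold was 0% for I183M versus control, 0.00336% (1 feature) for I183P versus control and 0.0738% (22, all lower) for delta versus control, and it was 0% in each of the 3 direct comparisons. Unadjusted p-values were under 0.05 for 434, 1543 and 2191 features in the comparisons with control, and for 380, 1045 and 828 in I183P versus I183M, delta versus I183M and delta versus I183P. Of the members' differences from control, Myl1 and Casq1 were non-overlapping and higher in I183M and in I183P, where 2.36% and 7.55% of all features were, and Myl1 was so in delta, where 10.5% were. Tnnc2 was non-overlapping and lower in I183M and I183P, where 1.37% and 5.23% were. None of the tested genes was lower without overlap in delta, where 3.1% were. Without control replicate 1, Myl1 and Casq1 were higher without overlap in all 3 lines, Casq1 in delta only by -1.16 against -1.25. Tnnc2 was then lower without overlap in I183M and I183P, and Tnnt3 was higher in delta. The shares of all features then were 23.4% higher and 9.07% lower in I183M, 14.6% higher and 15.9% lower in I183P, and 22.4% higher and 11.7% lower in delta.

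Between the mutant lines, Tnnc2 was separated without overlap but did not pass the threshold. It was higher in delta than in I183M by 0.66 (SE 0.39, limma adjusted p = 1). Against I183P it was higher in delta by 0.87 (SE 0.39, limma adjusted p = 0.9999). The arrays did not overlap in either case, a state that 11% and 13.4% of all features shared in that direction. With the slide as a block the Tnnc2 differences were 0.32 (SE 0.73) and 0.65 (SE 0.57). No slide held both delta and I183M arrays. None of the 5 genes well above background on all arrays was lower without overlap in a direct comparison, a state of 18.6% of all features in I183P against I183M, 6.28% in delta against I183M and 6.07% in delta against I183P. Myh4 was not well above background on any I183P array, so its values there have no order. In I183P against I183M, 5.79% were higher without overlap. Myl1 differed between mutant lines by 0.34 (I183P over I183M), 0.19 (delta over I183M) and -0.15 (delta over I183P), each with an SE of 0.48, and the arrays overlapped in all 3. For Casq1 the same differences were 0.40, -0.38 and -0.78 (SE 0.45). Myl1 and Casq1 correlated at 0.64 over the 11 arrays and at 0.40 over all 12, and Myl1 and Tnnt3 at 0.13 and -0.57, as a description over arrays of 4 groups.

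**Figure D4:**
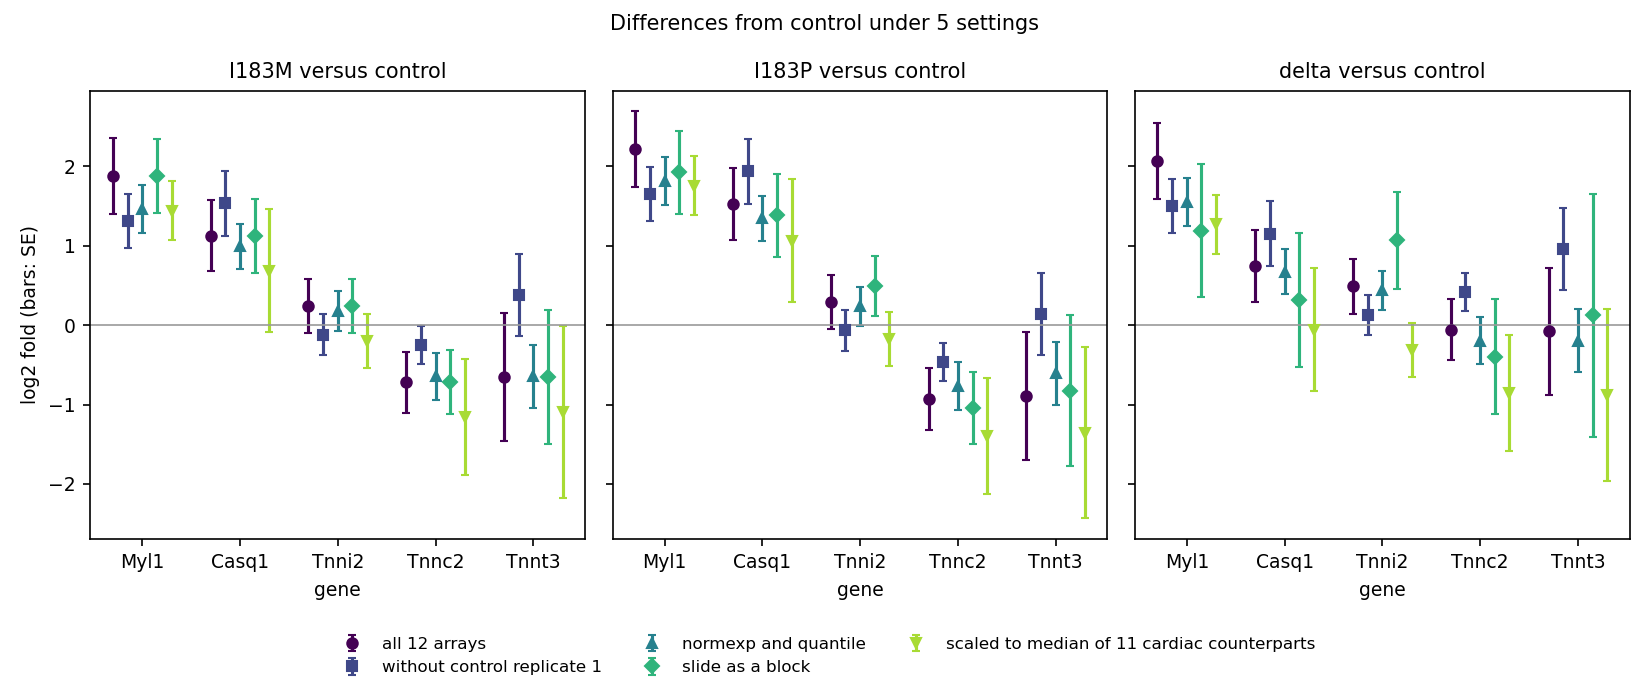
Log2 differences from control (y axis, bars are the SE) of 5 genes well above background on all arrays (x axis), in 1 panel per mutant line, under 5 settings marked by shape. Myl1 lies above 0 in every panel and setting shown, from 1.19 to 2.22, and Casq1 reaches -0.06 in delta with scaling to the cardiac counterparts. Tnnt3 and Tnni2 change sign between settings, and so does Tnnc2 in delta (-0.06 with all arrays, 0.42 without control replicate 1).

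Other genes of fast and general skeletal muscle were read from lists drawn up by function, with earlier results of these data known. The lists share genes with each other. Actn2 is also a cardiac counterpart, Tpm3 a slow isoform and Sln an atrial marker, and Casq2 is both a slow isoform and a cardiac counterpart. Of 41 tested genes among 44 other fast and general skeletal muscle genes, none passed the threshold in either direction in any comparison with control. Their median differences from control were 0.35 in I183M, 0.42 in I183P and 0.37 in delta, against 0.11, -0.03 and 0.04 over all features, and without control replicate 1 they were 0.08, 0.01 and 0.15 against 0.09, 0.01 and 0.16. The 11 cardiac counterparts had medians of 0.52, 0.49 and 0.55, and 0.09, 0.07 and 0.14 without control replicate 1. Both lists therefore moved with that array, and lay near the median of all features without it. The 9 slow isoforms had medians of 0.42, 0.51 and 0.47, which were 0.09, 0.08 and 0.13 without control replicate 1, and none passed the threshold.

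Markers of atrial muscle differed between arrays beside these results. The 6 atrial cardiomyocyte genes had median differences from control of 1.02, 0.69 and 1.45, and of 1.13, 0.74 and 1.46 without control replicate 1, with none past the threshold. All but Bmp10 were well above background on the other 11 arrays. Their summed level, as a multiple of the array's 75th percentile, ran from 41.7 to 148 in control, 36.2 to 81.1 in I183M, 39.3 to 128 in I183P and 67.0 to 314 in delta, and the groups overlapped. Myh7, the slow heavy chain shared by heart and slow fibres, was higher than control in delta by 2.42 (SE 0.69, limma adjusted p = 0.384) without overlap, and by 1.79 without control replicate 1. The part of atrial muscle in the Myl1 and Casq1 values was not tested.

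Within these lists, 5 of the 41 fast and general muscle genes and 1 of the 9 slow isoforms had all 9 mutant arrays above all control arrays, and none had all below, against 0.819% above and 0.342% below over all features. Without control replicate 1 the counts were 6 above and 2 below of 41, against 3.4% and 2.95%. The lists were drawn up with earlier results of these data known, so nothing is read from these counts. The genes described next were taken for the smallest p of their list, so their separation was selected for, and other genes of the first list lay as low as -0.86, -2.14 and -1.32. Mybpc2, the fast myosin-binding protein C, had levels of 1.06, 1.45 and 1.99 in control, 2.40, 2.04 and 2.03 in I183M, 2.11, 2.36 and 3.23 in I183P, and 2.53, 2.16 and 3.51 in delta. All mutant arrays were above all control arrays, by group differences of 0.66, 1.07 and 1.23 (SE 0.42, limma adjusted p = 0.879, 0.563 and 0.477). Jsrp1, a protein of the junction where calcium is released, was higher by 0.36, 0.50 and 0.52 (SE 0.19), also without overlap. The separation of Mybpc2 depended on the normalization. With normexp and quantile, none of the 13 tested skeletal fibre markers, Mybpc2 among them, had all mutant arrays above all control arrays.

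The 11 tested myogenic factors and satellite cell genes went both ways. Of these, 6, 7 and 7 lay above control in I183M, I183P and delta, with medians of 0.09, 0.34 and 0.22 and lowest differences of -0.75, -1.69 and -0.97, and none passed the threshold. All mutant arrays were above all control arrays for 2 of the 11. One was Six4, a homeobox factor of the skeletal muscle lineage, also taken by smallest p. It had levels of -0.83, -0.25 and -0.15 in control, 0.03, 0.40 and 0.22 in I183M, 0.71, 0.62 and 0.55 in I183P, and 0.35, 0.36 and 0.47 in delta. Every mutant array was above every control array. Six4 was higher by 0.63, 1.04 and 0.80 (SE 0.22, limma adjusted p = 0.879, 0.515 and 0.35) and did not pass the threshold. With normexp and quantile the differences were 0.84, 1.19 and 0.99, and without control replicate 1 they were 0.41, 0.82 and 0.59.

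**Figure D5:**
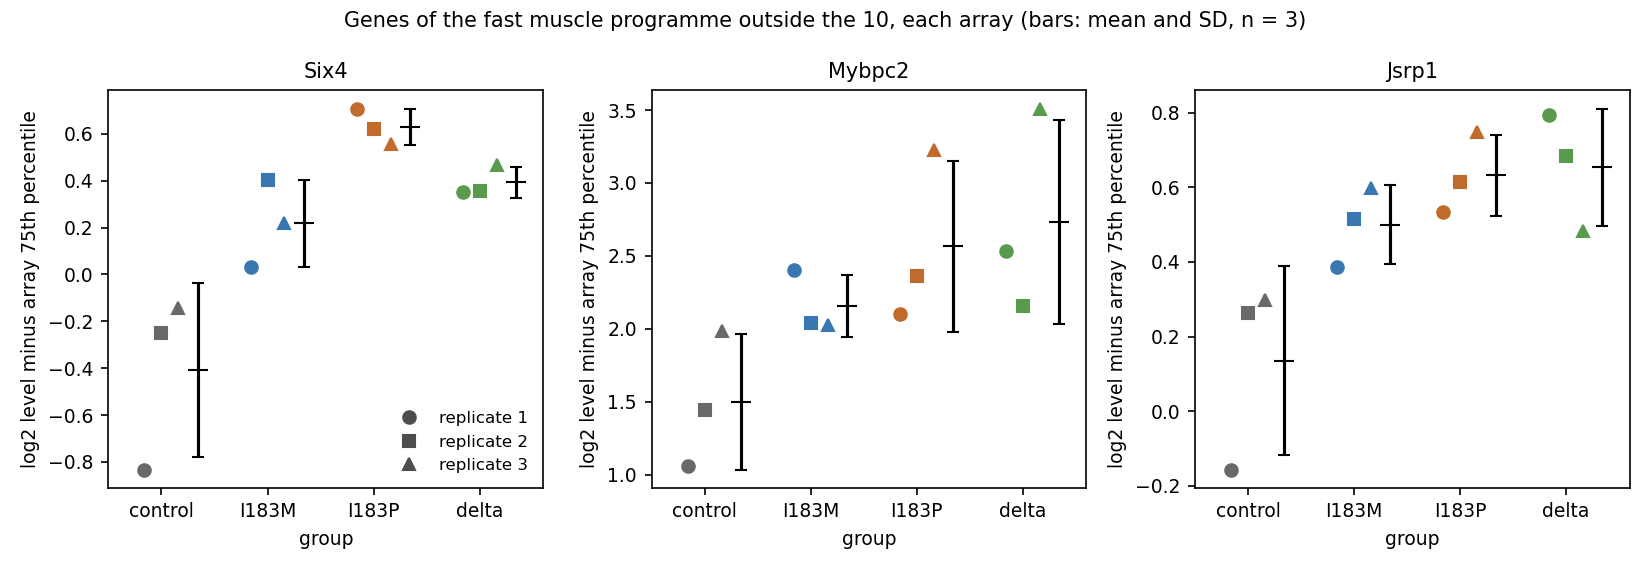
Levels of Six4, Mybpc2 and Jsrp1 on each array (y axis, log2 processed intensity minus the array's 75th percentile) by group (x axis); marker shapes are replicates, and bars are the mean and SD of 3 arrays. The control arrays are the lowest 3 for each gene, at most -0.15 for Six4, 1.99 for Mybpc2 and 0.30 for Jsrp1.

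Markers of skeletal muscle fibres and of myogenic cells were measured beside these results. Of 14 fibre markers outside the 10 genes, 9 were well above background on the other 11 arrays, and Ampd1 was on none of them. Their summed level, as a multiple of the 75th percentile, was 24.8 on control replicate 1 and 52.9 and 53.4 on the other control arrays, and ran from 50.4 to 54.4 in I183M, 50.4 to 59.5 in I183P and 48.6 to 59.1 in delta. The groups overlapped in that sum. Of 6 satellite cell and myoblast markers, 1 was well above background on all of those 11 arrays, and each of these arrays had 1 to 3. The myogenic factors Myod1, Myog and Myf5, which define myoblasts, were the 3 not well above background on any of them. The part of skeletal muscle cells in the Myl1 and Casq1 values was not tested.

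The genes whose levels ran most like those of a member were taken by Pearson correlation over the 11 arrays outside control replicate 1. For Myl1 they included Sypl2 (0.943), Col22a1 (0.900), Prkcq (0.898) and B3gnt2 (0.896). With control replicate 1 included, Sypl2 was at 0.02, while Prkcq was at 0.92. The mean level of Col22a1 was -3.32 in control, -1.83 in I183M, -1.10 in I183P and -1.34 in delta, and that of Prkcq was -1.62, -0.66, -0.56 and -0.47.

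For Casq1 the closest was Esm1 (0.967), followed by Gpr162, Lrig3, Frk and P2ry10b, and for Tnni2 it was Chic2 (0.904), followed by Glod4, Rala, Acaa1a and Bcap31. For Tnnc2 it was Nras (0.968, or -0.13 with all 12 arrays), followed by Pgbd5, Ndufb2, Arid5a and Ring1. For Tnnt3 they were Atp7b (0.964), Zfy2, Rbm41, Rhbdd1 and Olfr1056, of which Zfy2 and Olfr1056 were well above background on only 2 of the 11 arrays. These arrays share their groups and slides, so the correlations describe likeness only.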

How the data were processed

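RNA of 12 heart samples was measured on single-colour Agilent arrays, 3 per group. Per the file headers, the scanner software was Feature Extraction 11.0.1.1 (Agilent), its protocol was GE1_1100_Jul11, and probes were laid out on mm9. The deposited scanner files give intensity values, of which the processed intensity was corrected for background by that software within each array and not scaled between arrays. The authors' deposited value table has log2 values by its range, with array medians of 6.89 to 6.94, and its steps are not stated. It was used as an alternative only. Detection is the deposited flag for a spot well above background.

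The log2 processed intensity minus each array's 75th percentile was used. Control spots and outlier flags were left out, and spots of a probe were averaged. Accessions were matched to a RefSeq table of GRCm38.p6, which named 27235 of 55681 probes, and 96 probes with a missing value were left out. Probes well above background on at least 3 of 12 arrays (41591) were tested, each gene by its tested probe with the highest mean (29795 genes or features), with limma 3.58.1 in R 4.3.3 over all 12 arrays and Benjamini-Hochberg adjustment. The fit was tested on simulated data. No array had a saturated spot, and the number of arrays limits the precision.

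The 10 genes, the gene lists and the rule for named genes were chosen with earlier results of these data known. The rule takes all 10 genes with every probe, Nkx2-5, the cardiac counterparts, up to 4 genes of each list by smallest p and the 5 genes most like each member detected on the 11 arrays outside control replicate 1. The values of 1 gene that this rule names are not reported here. Replicate numbers are shared by the labels: same-numbered arrays of control and I183M deviated together (correlations 0.79, 0.56 and 0.50), while those of the other group pairs did not all do so, down to -0.81. The fit was repeated with the replicate number as a block. There were 25 alternatives, 4 of them chosen after seeing the data.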

Additional observations from a re-analysis of the deposited data

How the results depend on the processing

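The count of the 10 genes past the adjusted threshold was 0 in each comparison under each of the 25 alternatives that could be fitted for it, the replicate block included. Myl1 stayed above control in all of them, from 1.31 to 2.34 in I183M, 1.65 to 3.00 in I183P and 1.19 to 2.53 in delta. Casq1 did so in I183M and I183P, and in delta in all but one. That exception, -0.06, came from scaling to the median of all 11 cardiac counterparts, a setting added after seeing the data. A scaling to the mean of 8 ventricular counterparts (0.28) was added after that value had been seen, because the median gene on delta replicate 3 was Myh7, whose level there was 8.22 against medians of 6.99 to 7.30 on the other arrays outside control replicate 1. Both are kept. Scaling to the array median moved the median of all features to 0.33, 0.76 and 0.43 over control.

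Direct differences between mutant lines changed sign in 29 of 441 fits, none past the threshold. For I183P over I183M, Tnnt3 was 0.0395 with normexp and quantile (0.0392 without control replicate 1), 0.0534 in the authors' deposited table, 0.32 with median scaling and 0.20 without the 3 arrays with the most spots above background, Tnnc2 was 0.35 with median scaling, and Tnni2 was -0.0705 without those 3 arrays. For delta over I183M, Myh4 was 0.24 with normexp and quantile (0.21 without control replicate 1), 0.47 in the authors' deposited table and 0.74 with the slide block, Myl1 was -0.69 with the slide block and -0.17 scaled to the median of the cardiac counterparts, and Tnni2 was -0.12 with that scaling. For delta over I183P, Tnni2 was -0.21 with median scaling and -0.15 with the counterpart median, and without the 3 arrays Myl1 was 0.0414 and Myh4 -0.27. Leaving out 1 array at a time gave -0.50 to 0.20 for Tnnt3 and -0.13 to 0.25 for Tnni2 in I183P over I183M, -0.0015 to 0.38 for Myl1 and -1.71 to 0.54 for Myh4 in delta over I183M, and -0.34 to 0.15 for Myl1, -0.27 to 1.92 for Myh4 and -8e-05 to 0.38 for Tnni2 in delta over I183P. The cause was not tested. Counts over all features (0, 1 and 22 over control as reported) ran from 0 to 11, 0 to 27 and 0 to 335, and from 0 as reported in the direct comparisons went up to 7, 118 and 10. The highest came from normexp and quantile without control replicate 1, except the 7. With normexp and quantile, delta versus control had 8 higher and 17 lower. The slide block, median scaling, and leaving out control replicate 3, delta replicate 1 or the 3 arrays together each gave 0 there, and leaving out control replicate 1 gave 51.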
